A study of Neurospora crassa with 86 samples.

Results

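The loss of nit-2 in full medium was described from 3 libraries of Δnit-2 and 5 libraries of wild type, 8 of the 86 libraries of the series, chosen by their labelled genotype and medium. Δnit-2 is a deletion strain of the filamentous fungus Neurospora crassa whose isolate, construct and mating type the labels do not give. Wild type was strain FGSC 2489. Conidia of either strain were grown to mycelium for 24 h in 3 ml of sucrose medium at 25 °C in constant light. The mycelium was washed without nitrogen and held for 4 h in Vogel's Minimal Medium, which has 25 mM ammonium nitrate and 2% sucrose and is called the full medium here. RNA was then sequenced. Libraries of Δnit-2 and wild type held in 50 mM nitrate, isoleucine, proline or tryptophan instead, 3 of each strain per medium, show which differences recurred. A further 3 libraries of Δnmr in full medium are set beside Δnit-2. The labels call all replicates biological.

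NIT2, the product of nit-2, is a GATA-type transcription factor that activates genes for the use of nitrate, purines, amino acids and other secondary nitrogen sources. Ammonium and glutamine, the preferred sources, keep that activity low, and the product of nmr, which binds NIT2, is part of this repression. Each N. crassa isolate is of mating type A or mating type a: the mat A genes are present in mat A isolates alone, which make the pheromone precursor encoded by ccg-4, while mat a isolates make that encoded by mfa-1. FGSC 2489 is a mat A isolate.

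Levels are FPKM, fragments scaled to gene length and library size, with means ± SD over n = 3 Δnit-2 and n = 5 wild type libraries. Differences are log2(FPKM + 1) in Δnit-2 minus that in wild type, ± SE, with limma's adjusted p. Calls required both an adjusted p below 0.05 and a change of 1 log2 or more in size. The SE rests on a spread shared by all 27 groups of the series. Estimated depth was 7630000 to 19110000 fragments in the Δnit-2 libraries and 8100000 to 15880000 in wild type. Of 8558 genes tested 225 were called (2.63%), 112 higher (1.31%) and 113 lower (1.32%) in Δnit-2, and 39 differed by 2 log2 or more, of which 30 were lower. The groups did not overlap in 217 of the 225, against 35.5% of all genes tested. A gene symbol was held by 20 of the 225, and by 1090 of the 8558 tested.

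The vegetative hyphal markers hex-1, cot-1 and ro-1 were all measured and none was called, with summed levels of 3020 to 3356 FPKM in Δnit-2 and 2196 to 2773 in wild type. Conidial and aerial markers summed to 20.2 to 23.0 FPKM in Δnit-2 and 33.1 to 113.9 in wild type, and markers of sexual structures to 30.1 to 36.2 in Δnit-2, against 43.9 to 54.0 in wild type. Of these markers eas alone was called, at 6.87 to 7.54 FPKM in Δnit-2 and 23.4 to 85.1 in wild type, while con-8, con-10 and con-13 had differences of 0.54, 0.07 and -0.03 log2 and the median of the 5 conidial and aerial markers was -0.03. The lower conidial and aerial sum is therefore no statement about that list. Of the 4 sexual markers, at a median of -0.32 log2, asd-1 and fmf-1 lay below wild type without overlap. asd-1 was at 17.5 ± 1.55 FPKM in Δnit-2 and 31.4 ± 4.22 in wild type, and fmf-1 at 4.03 ± 0.289 and 6.08 ± 0.417. poi-2 and asd-3 overlapped. The part of such cells in the other differences was not tested. The mitochondrial share of summed FPKM was 0.00831 to 0.0130% in Δnit-2, 0.00858 to 0.00952% in the wild type libraries labelled 1 to 3 and 0.0174 to 0.0210% in those labelled 4 and 5. Between these sets of wild type libraries 19 genes were called higher and 4 lower in those labelled 4 and 5. The 3 full-medium Δnit-2 libraries also stood apart from the 12 Δnit-2 libraries of the other media in mating-type and strain genes, described below. For a difference seen in full medium alone, medium and isolate therefore cannot be told apart. The same holds for every difference in effect between full medium and another medium. Values from the other media are given beside the results.

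The deleted gene was low in every Δnit-2 library. nit-2 (NCU09068; supercontig 12.1, 741884 to 746951) was at 3.48, 5.59 and 5.26 FPKM in Δnit-2, against 45.2, 45.9, 40.9, 44.6 and 44.4 FPKM in wild type. The groups did not overlap, and the mean was 9.25-fold lower in Δnit-2 (-2.99 ± 0.11 log2, adjusted p = 1.65e-33). FPKM covers a whole gene model, so which part the remaining fragments came from, 180 to 801 per Δnit-2 library by estimate, was not tested. In the other 12 Δnit-2 libraries nit-2 was at 3.30 to 6.61 FPKM, overlapping the full-medium range.

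Transcripts of both entries that border nit-2 were higher in Δnit-2. NCU09069 starts 806 bases beyond nit-2 and is merged with its neighbour NCU09070 in the joint table. The merged entry was at 132.9, 129.9 and 115.9 FPKM in Δnit-2 and 17.8, 18.7, 18.5, 16.4 and 23.3 in wild type. Every Δnit-2 library was above every wild type library, by 2.68 ± 0.16 log2 (adjusted p = 6.3e-22), and the call recurred in all 4 other media. By per-sample values NCU09069 was at 116.4 ± 7.40 FPKM in Δnit-2 and 13.2 ± 2.70 in wild type, and NCU09070 at 10.4 ± 0.678 in Δnit-2 and 7.58 ± 0.836 in wild type (SD, n = 3 and 5). NCU09066, which ends 885 bases before nit-2, was at 2.69, 3.98 and 4.28 FPKM in Δnit-2 and 0.837, 1.12, 0.625, 0.921 and 1.21 in wild type, a difference of 1.25 ± 0.16 log2 (adjusted p = 1.26e-08). Within 200 kb of nit-2, these and nit-2 were the only entries called, 3 of 70 tested (4.29%, against 2.63% of all genes).

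Nitrate assimilation takes up nitrate through the transporter encoded by nit-10, reduces it with nitrate reductase (nit-3) and then with nitrite reductase (nit-6). In the joint table the entries of nit-3 and nit-6 were called, both lower in Δnit-2, and nit-10, which is merged with a neighbour there, passed both thresholds by per-sample values. nit-3 (NCU05298; supercontig 12.4, 5420216 to 5423422) was at 0.744, 1.27 and 1.04 FPKM in Δnit-2, against 48.1, 49.6, 41.4, 38.9 and 65.9 FPKM in wild type. Its groups were far apart, with a 47.9-fold lower mean in Δnit-2 (-4.61 ± 0.76 log2, adjusted p = 3.68e-06). In bulk mycelium, less transcript per cell and fewer cells with the transcript cannot be told apart.

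nit-6 (NCU04720; supercontig 12.6, 534862 to 539145) was at 50.9, 67.1 and 58.6 FPKM in Δnit-2 and 348, 362, 319, 276 and 283 in wild type. The groups did not overlap and the difference was -2.41 ± 0.87 log2, with an adjusted p of 0.0370 that was near the threshold. Leaving out any of the 3 Δnit-2 libraries gave adjusted p of 0.0775 to 0.109, and leaving out wild type library 1, 2 or 3 gave 0.0548 to 0.0587. The SE behind these values rests on the spread of all 27 groups. Within the groups compared, the SD of nit-6 was 8.12 FPKM in Δnit-2 and 38.3 in wild type.

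nit-10 (NCU07205) lies beside NCU11348 on supercontig 12.5 and is merged with it in the joint table. As merged, the entry nit-10,NCU11348 was at 197.8 ± 12.4 FPKM in Δnit-2 and 467.9 ± 93.0 in wild type and was not called (-1.22 ± 0.47 log2, adjusted p = 0.0538). The per-sample values separate the genes: nit-10 was at 4.28, 4.43 and 4.23 FPKM in Δnit-2 and 371, 384, 333, 274 and 245 in wild type, while NCU11348 was at 198 ± 8.31 in Δnit-2 and 169 ± 24.3 in wild type. For nit-10 alone the difference was -5.90 ± 0.65 log2 (adjusted p = 1.13e-10), and for NCU11348 it was 0.24 ± 0.24. The groups of nit-10 did not overlap, and it had 776 estimated fragments over the Δnit-2 libraries against 95915 over wild type.

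**Figure D1:**
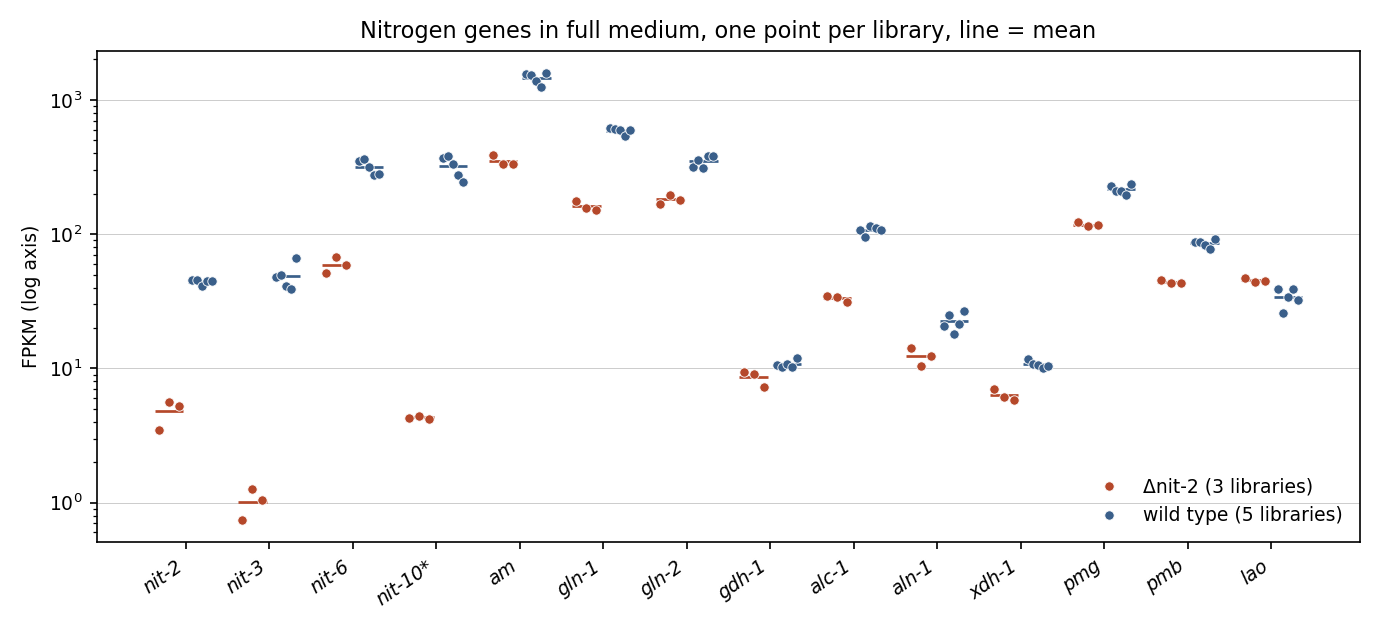
Level of 14 nitrogen genes in each full-medium library, in FPKM on a log axis, with Δnit-2 (red, 3 libraries) left of wild type (blue, 5 libraries) for each gene and a line at each mean. Points of nit-10, marked with an asterisk, are per-sample values of that gene alone; the others are from the joint table. nit-2, nit-3 and nit-10 are farthest apart, while Δnit-2 lies above wild type for lao alone.

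The enzymes that build ammonium into amino acids were lower in part. am (NCU01195), the NADP-dependent glutamate dehydrogenase that makes glutamate, was at 387, 331 and 330 FPKM in Δnit-2 and 1567, 1536, 1389, 1240 and 1582 in wild type. The mean was 4.19-fold lower in Δnit-2 with no overlap (-2.06 ± 0.25 log2, adjusted p = 1.57e-09). gln-1 (NCU06724), a glutamine synthetase, was at 175, 157 and 152 FPKM in Δnit-2 and 615, 602, 593, 538 and 593 in wild type, again without overlap (-1.86 ± 0.17 log2, adjusted p = 8.46e-14). Both genes were also called lower in all 4 other media, and neither had a called difference between media. For gln-1 the difference against proline was -0.79 log2 (limma's adjusted p = 0.0113), under 1 log2.

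The other genes of ammonium assimilation were not called. gln-2, the second glutamine synthetase, was at 168 to 196 FPKM in Δnit-2 and 310 to 381 in wild type. Its difference of -0.94 ± 0.20 log2 had an adjusted p of 0.000212 but was under 1 log2, which median-ratio scaling brought to -1.01. gdh-1, the NAD-dependent glutamate dehydrogenase that degrades glutamate, was at 7.30 to 9.36 FPKM in Δnit-2 and 10.2 to 11.9 in wild type (-0.30 ± 0.18 log2, adjusted p = 0.239). en(am)-2, glutamate synthase, was at 107.3 ± 3.87 FPKM in Δnit-2 and 102.2 ± 2.24 in wild type, and the interval of 2 SE around its difference ran from -0.36 to 0.50 log2. Levels of gln-2 and gdh-1 did not overlap between strains in full medium. In the other media gdh-1 was called lower in isoleucine and proline, at -1.03 and -1.19 log2. There en(am)-2 was called higher in isoleucine, at 1.11 log2, and gln-2 was called in none. The list of 5 genes had a median difference of -0.94 log2 in full medium, against 0.03 for all genes tested.

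Purine breakdown yields ureides that are split to release nitrogen. alc-1 (NCU01816), allantoicase, was at 34.7, 34.2 and 31.4 FPKM in Δnit-2 and 106.6, 95.6, 114.2, 111.5 and 107.9 in wild type. That is a 3.21-fold lower mean in Δnit-2, with no overlap (-1.65 ± 0.20 log2, adjusted p = 1.36e-09), and it recurred in all 4 other media. aln-1, allantoinase, was at 12.4 ± 1.89 FPKM in Δnit-2 and 22.4 ± 3.48 in wild type, without overlap (-0.80 ± 0.22 log2, adjusted p = 0.00592), under the fold set for a call. It was called lower in each other medium, at -1.82 to -3.10 log2, and its difference was smaller in full medium in all 4 tests of the difference between media. xdh-1, xanthine dehydrogenase, was at 5.86 to 7.07 FPKM in Δnit-2 and 10.1 to 11.8 in wild type (-0.67 ± 0.20 log2).

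Of 7 genes for amino acid uptake and use none was called in full medium, and their median difference was -0.39 log2. The permeases nearest to a call were pmg, the general amino acid permease, at 114 to 122 FPKM in Δnit-2 and 196 to 238 in wild type, and pmb, the basic amino acid permease, at 43.1 to 45.9 in Δnit-2, against 77.1 to 91.7 in wild type. Their differences were -0.87 ± 0.17 and -0.93 ± 0.19 log2, with no overlap between the groups of either gene. In the other media pmg was called lower in all 4, at -1.02 to -2.58 log2, and pmb in nitrate, isoleucine and tryptophan. mtr, the neutral amino acid permease, was at 269 to 304 FPKM in Δnit-2 and 396 to 474 in wild type (-0.53 ± 0.38 log2, adjusted p = 0.349), and was called lower in proline alone.

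Arginase (aga-1) was at 96.9 ± 8.94 FPKM in Δnit-2 and 127 ± 7.50 in wild type, ornithine transaminase (ota) at 98.7 ± 3.35 in Δnit-2 and 98.5 ± 4.08 in wild type, and the permease aap-2 at 2.03 ± 0.0619 in Δnit-2 and 1.52 ± 0.175 in wild type. lao encodes L-amino acid oxidase, which releases ammonium from amino acids. It was at 47.5, 43.7 and 44.4 FPKM in Δnit-2 and 38.8, 25.7, 33.9, 38.8 and 32.4 in wild type, without overlap, and its difference of 0.42 ± 0.41 log2 was not called (adjusted p = 0.518). In the other media lao was called lower each time, for example at 16.6 ± 2.66 FPKM in Δnit-2 and 167 ± 21.6 in wild type in proline, and the difference between media was called in all 4 tests, at 2.76 to 3.68 log2.

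Among the 9 nitrogen regulators nit-2 alone was called. nit-4, the nitrate-specific activator, was at 2.66 to 3.35 FPKM in Δnit-2 and 2.96 to 3.63 in wild type, and nmr at 11.1 to 12.8 in Δnit-2, against a wild type mean of 13.5. Levels of both overlapped between strains. In the other media nmr was called lower in nitrate, isoleucine and proline, at -1.09 to -1.19 log2, but not in tryptophan, at -0.30. No difference between media was called for nmr, but 3 of the 4 missed the 1 log2 threshold alone. They were 0.89, 0.94 and 0.99 log2 against nitrate, isoleucine and proline, with limma's adjusted p of 0.0073, 0.0053 and 0.0014. The activator of general amino acid control, cpc-1, was at 1164, 1123 and 1135 FPKM in Δnit-2 and 2125, 2102, 2191, 1804 and 2128 in wild type, a difference of -0.86 ± 0.19 log2 without overlap (adjusted p = 0.000329). It was not called in the other media, and the difference between media was called for isoleucine, proline and tryptophan. The GATA factor asd-4 was at 8.80 to 9.30 FPKM in Δnit-2 and 10.7 to 14.5 in wild type (-0.46 ± 0.12 log2). sub-1, sre, pco-1 (the purine-specific activator) and NCU00445 had differences of -0.08, -0.14, 0.03 and -0.33 log2.

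The 3 largest falls in the joint table were in genes without a symbol. NCU01348 (supercontig 12.5, 3730157 to 3732570) was at 0, 0.116 and 0.108 FPKM in Δnit-2, against 60.4, 70.2, 50.5, 39.5 and 58.2 FPKM in wild type (-5.70 ± 0.31 log2, adjusted p = 2.03e-23). It had 11 estimated fragments over the 3 Δnit-2 libraries and 11925 over the 5 of wild type. NCU08397 (supercontig 12.7, 1099434 to 1102819) was at 0.644, 0.728 and 0.955 FPKM in Δnit-2 and 54.1, 82.0, 63.8, 58.7 and 62.5 in wild type (-5.19 ± 0.40 log2).

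Of neighbours on supercontig 12.3, NCU06416 was at 0.908, 0.841 and 1.19 FPKM in Δnit-2 and 66.9, 65.7, 71.2, 44.2 and 66.4 in wild type. NCU06417, which follows it, was at 2.93 to 3.56 in Δnit-2, against 17.1 to 25.3 in wild type. Both were lower without overlap, with differences of -5 ± 0.23 log2 for NCU06416 and -2.28 ± 0.21 for NCU06417. NCU08407 was at 0.823 ± 0.0988 FPKM in Δnit-2 and 43.2 ± 6.31 in wild type, and NCU09909 at 0.291 ± 0.0856 in Δnit-2 and 15.8 ± 1.67 in wild type, falls of -4.59 ± 0.27 and -3.70 ± 0.27 log2. NCU04435 was the single gene under 1 FPKM in all 15 Δnit-2 libraries whose wild type mean in full medium reached 5 FPKM. It was at 0.0935, 0.155 and 0.136 FPKM in full-medium Δnit-2 and 11.5, 8.33, 11.5, 8.25 and 13.9 in wild type (-3.35 ± 0.23 log2, adjusted p = 2.1e-18). NCU08225 was at 4.48 ± 0.426 FPKM in Δnit-2 and 42.7 ± 3.04 in wild type, and NCU09506 at 2.03 ± 0.294 in Δnit-2 and 15.9 ± 3.29 in wild type.

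These falls were not limited to full medium. Of the 113 genes called lower, 39 (34.5%) were called lower in all 4 other media, and they made up 61.9% of the 63 genes so called there (0.736% of all genes). Another 18 were called lower in 3 of those media, 8 in 2, 12 in 1 and 36 in none. By medium, 59 of the 113 were called lower in nitrate, where 5.38% of all genes were, and 61 in isoleucine, where 2.41% were. In proline 63 were called lower, against 4.37% of all genes, and in tryptophan 55, against 2.87%. In at least 1 of these media 77 of the 113 were called lower, against 10.1% of all genes. Calls in either direction covered 9.01, 5.2, 9.03 and 6.8% of genes in nitrate, isoleucine, proline and tryptophan. nit-2, am, gln-1, alc-1 and NCU01348, NCU08397, NCU06416, NCU08407, NCU09909, NCU04435, NCU08225, NCU09506 and NCU06417 were in the group of 39.

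Higher genes recurred in smaller numbers. Of the 112, 12 (10.7%) were called higher in all 4 other media, which was 29.3% of the 41 genes so called there (0.479% of all genes). Another 13 were so called in 3 media, 17 in 2, 20 in 1 and 50 in none, so 62 recurred in at least 1 medium, against 9.44% of all genes. By medium 43 were called higher in nitrate, 35 in isoleucine, 31 in proline and 32 in tryptophan, where 3.63, 2.79, 4.66 and 3.93% of all genes were. Whether lower genes recurred more often than higher ones was not tested.

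Size also differed between media. A test of the difference in effect between full medium and each other medium called 6.57% of genes for nitrate, 4.64% for isoleucine, 10.3% for proline and 7.48% for tryptophan. NCU01348 differed by -7.58 log2 in nitrate, -8.89 in isoleucine, -8.73 in proline and -8.57 in tryptophan, and all 4 tests of the difference from full medium were called. Its wild type level was 55.8 ± 11.5 FPKM in full medium and 446 ± 97.3 in nitrate. nit-3 differed by -6.18 log2 in nitrate, where it was called, and by -1.16, -0.89 and -2.01 in isoleucine, proline and tryptophan, where it was not. In those 3 media wild type nit-3 was at 2.08 to 5.75 FPKM on average. nit-6 was at 164 ± 41.8 FPKM in Δnit-2 and 784 ± 72.3 in wild type in nitrate, a difference of -2.28 ± 0.97 log2 that missed the threshold (adjusted p = 0.0522).

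**Figure D2:**
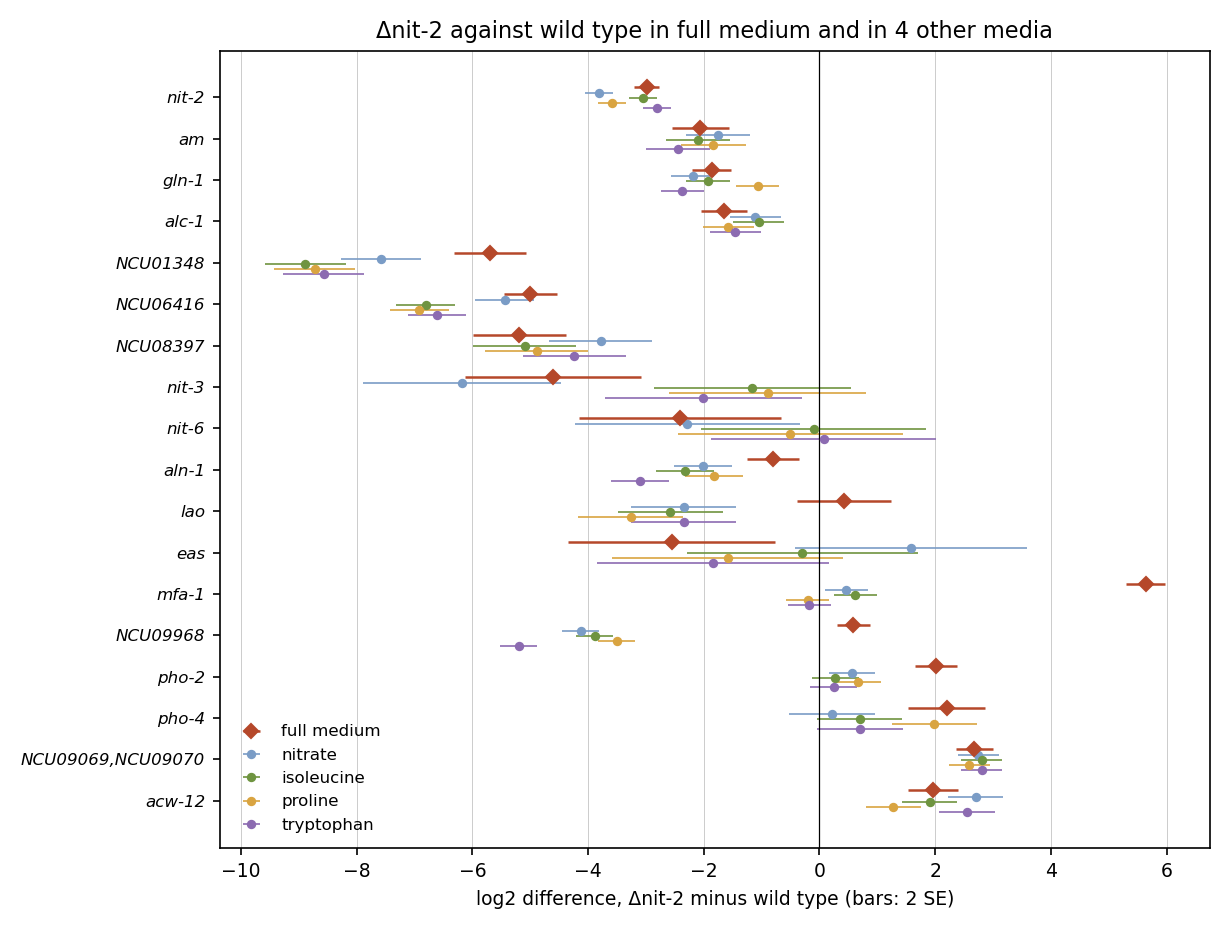
Δnit-2 minus wild type on the log2(FPKM + 1) scale for 18 genes, with bars of 2 SE, in full medium (red diamonds) and in nitrate, isoleucine, proline and tryptophan (circles). am, gln-1, alc-1 and the NCU09069,NCU09070 entry keep 1 side in all 5 media, whereas mfa-1 lies at 5.64 in full medium and between -0.20 and 0.62 elsewhere, and NCU09968 is above 0 in full medium alone.

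mfa-1 and matA-1 separated the full-medium Δnit-2 libraries from all others. mfa-1 (NCU16992; supercontig 12.5, 3396270 to 3397430) was at 131.7, 122.0 and 129.1 FPKM in Δnit-2, against 1.11, 1.40, 1.97, 1.73 and 1.79 FPKM in wild type. It had the largest rise of all called genes, 5.64 ± 0.17 log2 or 79.7-fold by the means (adjusted p = 3.94e-38). No other library of the series came near it: the remaining 83 lay between 0.757 and 21.3 FPKM, and the 12 Δnit-2 libraries of the other media between 1.94 and 5.81. The difference between media was called in all 4 tests, at 5.02 to 5.84 log2.

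matA-1 (NCU01958; supercontig 12.1, 1860692 to 1862194) was listed at 0 in all 3 Δnit-2 libraries and at 1.01, 0.799, 0.957, 0.772 and 0.777 FPKM in wild type. With 0 fragments in the 3 libraries together, a level of up to 0.0515 FPKM is allowed by 3 fragments, so matA-1 was at least 16.8-fold lower in Δnit-2 by per-sample values, for counting error only. Its difference of -0.90 ± 0.40 log2 was not called (adjusted p = 0.0973), and this scale understates low genes: with a pseudocount of 0.1 it was -3.26 and called. In all of the other 83 libraries matA-1 was above 0, at 0.296 to 27.1 FPKM, and in the 12 other Δnit-2 libraries it was at 0.296 to 1.85. There it was called lower than in wild type in isoleucine, proline and tryptophan. matA-2 and matA-3 did not separate the libraries: both were at 0 in these 3, but matA-2 was also at 0 in all 12 other Δnit-2 libraries and matA-3 in 7 of them.

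ccg-4 was at 0, 0.0185 and 0.0504 FPKM in Δnit-2 and 0.511, 0.246, 0.308, 0.560 and 0.792 in wild type. Its groups did not overlap, though the difference of -0.52 ± 0.66 log2 was not called. In the other media Δnit-2 had 1.73 to 28.4 FPKM of it. The pheromone receptor genes pre-1 and pre-2 were at 0.699 ± 0.0316 and 0.828 ± 0.149 FPKM in Δnit-2 and 0.683 ± 0.146 and 0.308 ± 0.0939 in wild type, with differences of 0.02 ± 0.12 and 0.48 ± 0.14 log2. Of the 5 tested genes in the mating and pheromone list 1 was called, mfa-1, where 2.63% of all genes were.

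Other genes marked the same split among Δnit-2 libraries. NCU09968 and NCU09969, which overlap on supercontig 12.6, were near 0 in the 12 Δnit-2 libraries of the other media, with at most 0.0566 and 0.0334 FPKM. Both were present in full-medium Δnit-2, NCU09968 at 17.9, 18.2 and 19.7 FPKM against 9.77, 9.66, 9.28, 17.2 and 16.9 in wild type, and NCU09969 at 5.05, 5.43 and 5.72 against 2.43, 2.04, 2.47, 3.58 and 3.84 in wild type. Neither was called in full medium (0.58 ± 0.14 and 0.75 ± 0.19 log2), and the difference between media was called in all 4 tests for both. The Δnmr libraries in full medium had 0 FPKM of both genes.

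NCU02061, on the supercontig of matA-1 and chosen after its values were seen, was listed at 0 in the 3 Δnit-2 libraries and at 4.39, 4.53, 3.99, 4.38 and 4.79 FPKM in wild type. In the other 12 Δnit-2 libraries NCU02061 was at 5.60 to 10.6 FPKM, and it was called lower than wild type there in isoleucine, proline and tryptophan, at -1.19 to -1.78 log2. By per-sample values and the limit of 3 fragments over the group, it was at least 109.7-fold lower in full-medium Δnit-2. Its fitted difference was -2.43 ± 0.27 log2 (adjusted p = 1.81e-10). In contrast, the NCU09069,NCU09070 entry was at 103.6 to 204.9 FPKM in the other 12 Δnit-2 libraries, overlapping the full-medium values.

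**Figure D3:**
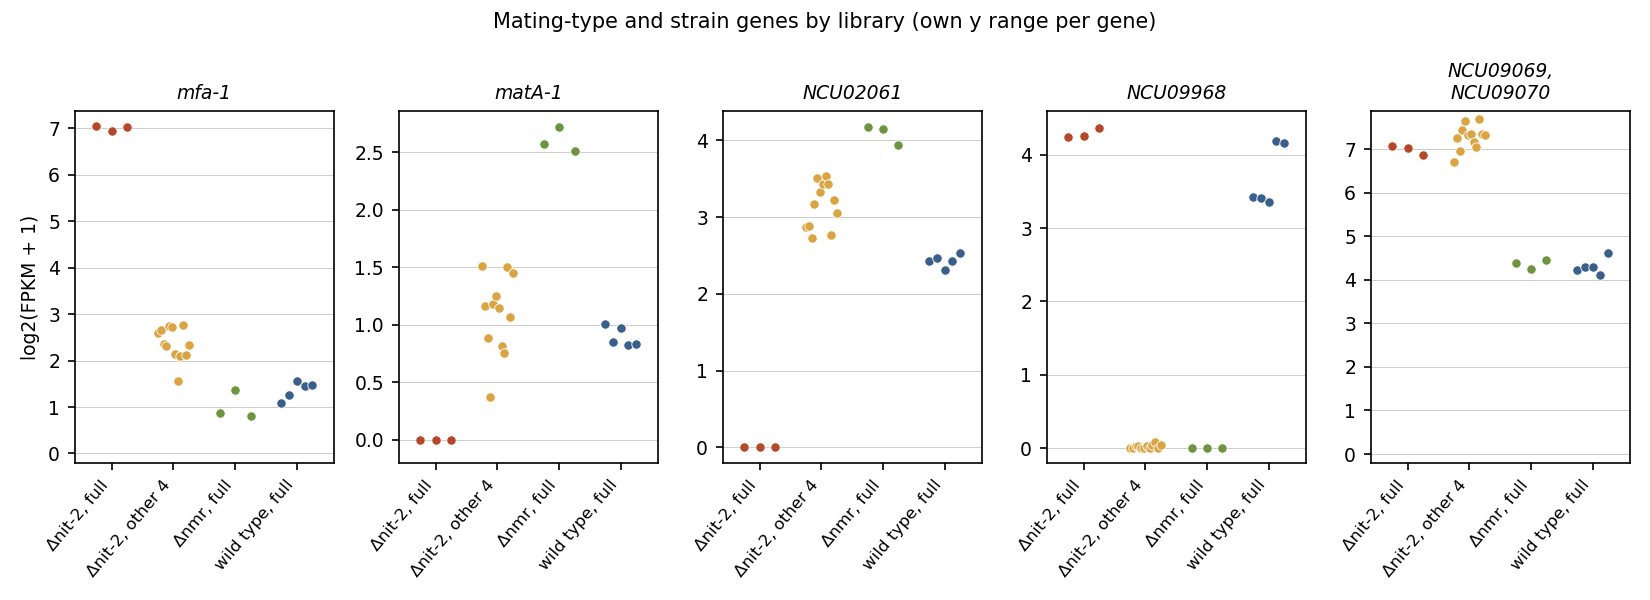
Level of 4 mating-type and strain genes and of the entry beside nit-2 in each library, as log2(FPKM + 1) with its own range per panel: Δnit-2 in full medium (red, 3 libraries), Δnit-2 in the other 4 media (yellow, 12), Δnmr in full medium (green, 3) and wild type in full medium (blue, 5). The 3 full-medium Δnit-2 libraries lie apart from the other 12 in mfa-1, matA-1, NCU02061 and NCU09968, but with them in NCU09069,NCU09070.

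The region around the mating-type locus held some of the calls. Within 200 kb of matA-1, 5 of 96 tested genes were called (5.21%), against 2.63% of all genes. NCU02009 was at 166.6, 161.4 and 172.0 FPKM in Δnit-2 and 43.1, 43.5, 46.8, 46.7 and 47.1 in wild type (1.85 ± 0.11 log2, adjusted p = 3.04e-22). NCU01968 was at 58.8 ± 1.75 in Δnit-2 and 15.5 ± 1.01 in wild type (1.86 ± 0.20 log2) and NCU01926 at 33.6 ± 1.28 in Δnit-2 and 16.0 ± 1.92 in wild type (1.04 ± 0.19). The call of NCU01926 was lost at 0.97 log2 with median-ratio scaling or per-sample values, at 0.88 against the wild type libraries labelled 1 to 3 and at 0.98 without wild type library 4. NCU02008 was at 5.01 ± 1.92 FPKM in Δnit-2 and 15.6 ± 1.52 in wild type (-1.52 ± 0.23 log2), and NCU01946 at 13.5 ± 2.75 in Δnit-2 and 37.5 ± 13.2 in wild type (-1.36 ± 0.37). NCU01968 was called higher in 3 other media, while NCU02009, NCU01926, NCU02008 and NCU01946 were called the same way in none. The full-medium difference minus that of the other medium was 2.61 log2 for NCU01926 against proline and -2.98 for NCU01946 against tryptophan. In those media these 2 genes therefore lay on the other side of wild type. The largest such values were -1.76 for NCU02008, against tryptophan, and 1.19 for NCU02009, against nitrate. All but NCU01968 were named after their values were seen.

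**Figure D4:**
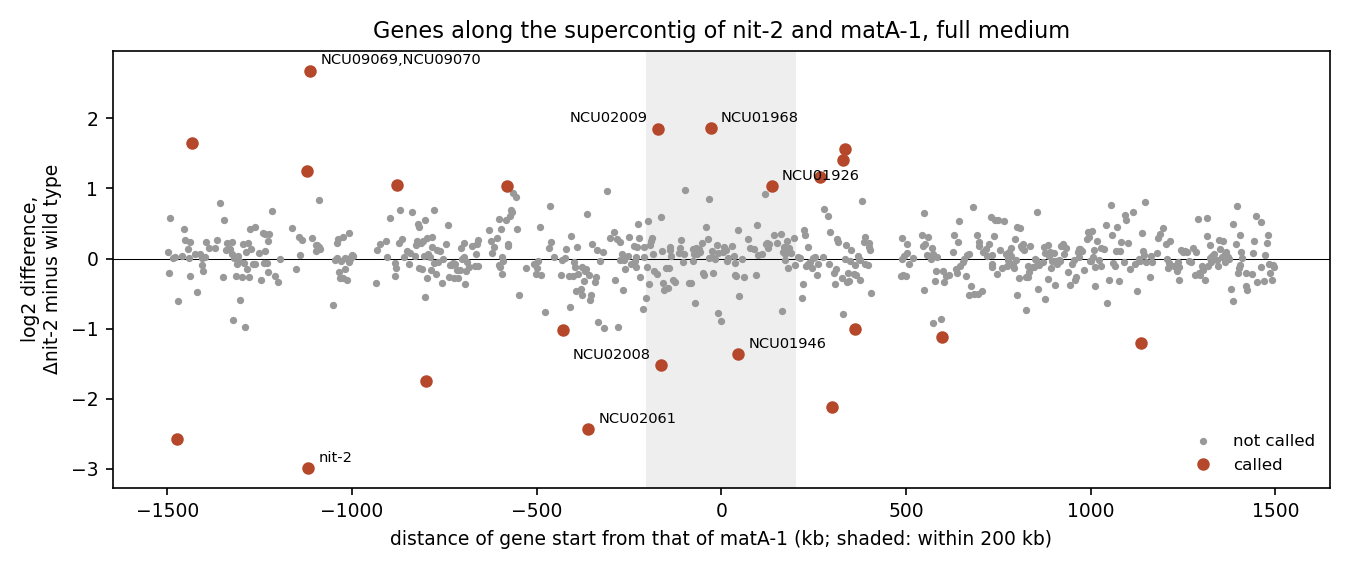
Δnit-2 minus wild type, on the log2(FPKM + 1) scale in full medium, against the distance in kb of each gene's start from that of matA-1, for genes along the supercontig that also carries nit-2. Called genes are red, others grey, and the 200 kb to either side of matA-1 are shaded. The shaded stretch holds 5 called genes, 3 higher and 2 lower, and the highest point lies beside nit-2.

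By test, few genes had a direction of change particular to full medium. Among the genes called in the same direction in no other medium, 5 higher and 7 lower genes also had a called difference between media in all 4 tests. An opposite call in another medium was not excluded here. Of all genes called in full medium, 7 of the 112 higher and 5 of the 113 lower had one in at least 1 other medium. Of all genes, 0.374% and 0.409% had all 4 tests called in these directions. The 5 were mfa-1, pho-2, NCU02880, NCU16685 and NCU01926, whose call was lost under those alternatives. NCU02880 was at 13.5 ± 2.86 FPKM in Δnit-2 and 3.51 ± 0.790 in wild type, and NCU16685 at 6.06 ± 1.53 in Δnit-2 and 1.92 ± 0.524 in wild type. Of the 7 lower genes, NCU09874 was at 42.8 ± 6.30 FPKM in Δnit-2 and 172.1 ± 12.1 in wild type (-1.99 ± 0.17 log2). NCU02880, NCU16685 and NCU09874 were chosen after their values were seen. The 4 tests share the full-medium libraries.

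Of 7 phosphate genes 3 were called, all higher in Δnit-2, where 1.31% of all genes were called higher, and the median of the list was 0.19 log2. pho-4 (NCU09564), a phosphate permease, was at 31.3, 29.6 and 31.0 FPKM in Δnit-2 and 6.49, 6.49, 6.79, 4.80 and 5.06 in wild type (2.2 ± 0.33 log2, adjusted p = 4.63e-07). pho-2 (NCU01376), an alkaline phosphatase, was at 15.4, 13.5 and 19.0 FPKM in Δnit-2 and 3.09, 3.00, 3.44, 2.80 and 3.54 in wild type (2.01 ± 0.18 log2). pho-5, a second phosphate permease, was at 6.82 to 7.55 FPKM in Δnit-2 and 2.38 to 3.87 in wild type (1.08 ± 0.35 log2, adjusted p = 0.0169), and without Δnit-2 library 1 its adjusted p was 0.0641. None of the 3 overlapped between strains. pho-4 was also called higher in proline, while pho-5 was called lower in nitrate and isoleucine. The regulators nuc-2 and preg had differences of 0.14 and 0.19 log2 and the phosphatase gene pho-3 -0.73 log2. The regulator nuc-1, merged with NCU09314, had -0.17 log2. None of these was called. Of the 7 entries 4 lay above wild type without overlap, where 21.1% of all genes did. The nuc-1 entry and pho-3 lay below it without overlap, where 14.4% of all genes did.

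Of 21 conidiation genes 1 was called higher and 2 lower in Δnit-2, where 1.31% and 1.32% of all genes were. eas, the hydrophobin that coats conidia, was at 7.54, 6.87 and 7.45 FPKM in Δnit-2 and 34.4, 64.4, 85.1, 23.4 and 55.0 in wild type (-2.55 ± 0.89 log2, adjusted p = 0.0313). That call was lost without any of the 3 Δnit-2 libraries, at adjusted p of 0.0796 to 0.0857, and without wild type library 2 or 3, at 0.0565 and 0.0691. fl, a transcription factor of conidial development, was at 6.14, 8.36 and 6.43 FPKM in Δnit-2 and 15.3 to 17.9 in wild type (-1.18 ± 0.18 log2, adjusted p = 1.08e-06). ccg-8, a clock-controlled transcription factor, was at 36.0 ± 2.41 FPKM in Δnit-2 and 17.5 ± 0.552 in wild type (1.00 ± 0.14 log2), at the threshold itself. con-6, a conidial gene, was at 5.41 to 6.13 FPKM in Δnit-2 and at 19.4, 24.3, 23.1, 1.11 and 1.67 in wild type, where the sets of wild type libraries differed.

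Other rises with a symbol were scattered over functions. acw-12, an anchored cell wall protein, was at 99.5 ± 8.98 FPKM in Δnit-2 and 24.7 ± 1.64 in wild type (1.96 ± 0.21 log2) and was called higher in all 4 other media too. gh18-3, a family 18 glycoside hydrolase, was at 23.2 ± 2.63 FPKM in Δnit-2 and 4.71 ± 0.911 in wild type (2.1 ± 0.23 log2). aod-1, the alternative oxidase of mitochondria, was at 178, 173 and 132 FPKM in Δnit-2 and 38.2, 41.4, 40.9, 87.3 and 56.7 in wild type (1.65 ± 0.29 log2, adjusted p = 1.6e-05). All 3 had no overlap between strains.

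Smaller calls were those of anx14, an annexin (1.13 ± 0.18 log2, but 0.80 and not called against the wild type libraries labelled 4 and 5, by per-sample values), hgt-1, a high-affinity glucose transporter (1.11 ± 0.31), and app (1.05 ± 0.40, adjusted p = 0.0484). app lost its call without any of the 3 Δnit-2 libraries and without wild type library 1, 3, 4 or 5, with adjusted p of 0.0522 to 0.166, and hgt-1 fell to 0.95 log2 without wild type library 4. Among rises without a symbol, NCU04475 was at 27.7, 18.5 and 23.2 FPKM in Δnit-2 and 3.08, 5.32, 2.31, 2.42 and 3.75 in wild type (2.49 ± 0.28 log2). NCU00248 was at 51.6 ± 2.19 in Δnit-2 and 10.2 ± 1.89 in wild type (2.24 ± 0.26) and recurred in all 4 other media. NCU08355 was at 39.7 ± 15.9 in Δnit-2 and 9.49 ± 1.80 in wild type (1.88 ± 0.41). NCU05755, NCU05899, NCU05131, NCU05309, NCU05922 and NCU01428 rose by 1.04 to 1.35 log2 and were also called higher in every other medium. For NCU05899 and NCU01428 the groups overlapped, and against the wild type libraries labelled 4 and 5 alone, by per-sample values, NCU05899, NCU05309, NCU05922 and NCU01428 differed by 0.53, 0.77, 0.61 and 0.17 log2 and were not called.

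Lists of basic metabolism stayed without calls. None of 64 genes in the amino acid synthesis list was called, with 31 of the 64 below wild type without overlap (14.4% of all genes were). Their median was -0.27 log2, and their summed level 10844 to 11844 FPKM in Δnit-2 and 13506 to 14552 in wild type. The list also holds the regulator cpc-1, described above, which had its lowest difference, -0.86 log2. cpc-1 made up 1123 to 1164 FPKM of the sum in Δnit-2 and 1804 to 2191 in wild type. The 19 sulfur genes, 12 carotenoid and light genes, 11 heat shock genes, 8 ribosomal protein genes, 7 quinate cluster genes and 7 genes of the glyoxylate cycle and gluconeogenesis had no call either, nor had 29 genes of respiratory complex I, 30 of the proteasome, 5 of heterokaryon incompatibility, 6 of secondary metabolism and 2 of autophagy. Complex I genes lay above wild type without overlap in 19 of 29 cases at a median of 0.24 log2, where 21.1% of all genes lay so. Proteasome genes did so in 16 of 30 cases, at a median of 0.19 log2. Of 76 glycoside hydrolases and 4 sugar transporters 1 each was called, gh18-3 and hgt-1, where 2.63% of all genes were.

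Deletion of nmr, the negative regulator, was measured against the same 5 wild type libraries, so its differences are given side by side and not correlated. NCU09968 and NCU09969 were at 0 FPKM in Δnmr but present in wild type and in full-medium Δnit-2. Loss of nmr and other differences between these strains therefore cannot be told apart. The nmr transcript was at 2.61 ± 0.175 FPKM in Δnmr and 13.5 ± 1.2 in wild type, and 4.41% of genes were called in Δnmr. nit-3 was at 1.02 ± 0.264 FPKM in Δnit-2, 296 ± 4.00 in Δnmr and 48.8 ± 10.6 in wild type (2.60 ± 0.76 log2 for Δnmr, adjusted p = 0.0077). gln-1 was at 161.5 ± 12 FPKM in Δnit-2, 1284 ± 27.6 in Δnmr and 588 ± 29.6 in wild type. am was at 350 ± 32.6 FPKM in Δnit-2, 1555 ± 81.8 in Δnmr and 1463 ± 146 in wild type, so Δnmr differed from wild type by 0.09 ± 0.25 log2 there. alc-1 was at 33.4 ± 1.74 FPKM in Δnit-2, 260 ± 31.7 in Δnmr and 107 ± 7.15 in wild type. Of these genes nit-3, gln-1 and alc-1 were called higher in Δnmr. The nitrate genes nit-6 and nit-10 were not called there. nit-6 differed from wild type by 0.41 ± 0.87 log2 in Δnmr (limma's adjusted p = 0.779), and nit-10 by 1.26 ± 0.65 by per-sample values (adjusted p = 0.156).

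gdh-1 and lao, not called in Δnit-2, were called higher in Δnmr. gdh-1 was at 8.58 ± 1.12 FPKM in Δnit-2, 49.7 ± 1.49 in Δnmr and 10.8 ± 0.686 in wild type, and lao at 45.2 ± 1.99 in Δnit-2, 491 ± 36.9 in Δnmr and 33.9 ± 5.41 in wild type. NCU04435 was at 0.128 ± 0.0313 FPKM in Δnit-2, 165 ± 10.3 in Δnmr and 10.7 ± 2.39 in wild type, and NCU06416 at 0.981 ± 0.187 in Δnit-2, 484 ± 26.1 in Δnmr and 62.9 ± 10.7 in wild type. NCU08397 was an exception among the largest falls, at 0.776 ± 0.161 FPKM in Δnit-2, 52.1 ± 20.8 in Δnmr and 64.2 ± 10.7 in wild type.

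**Figure D5:**
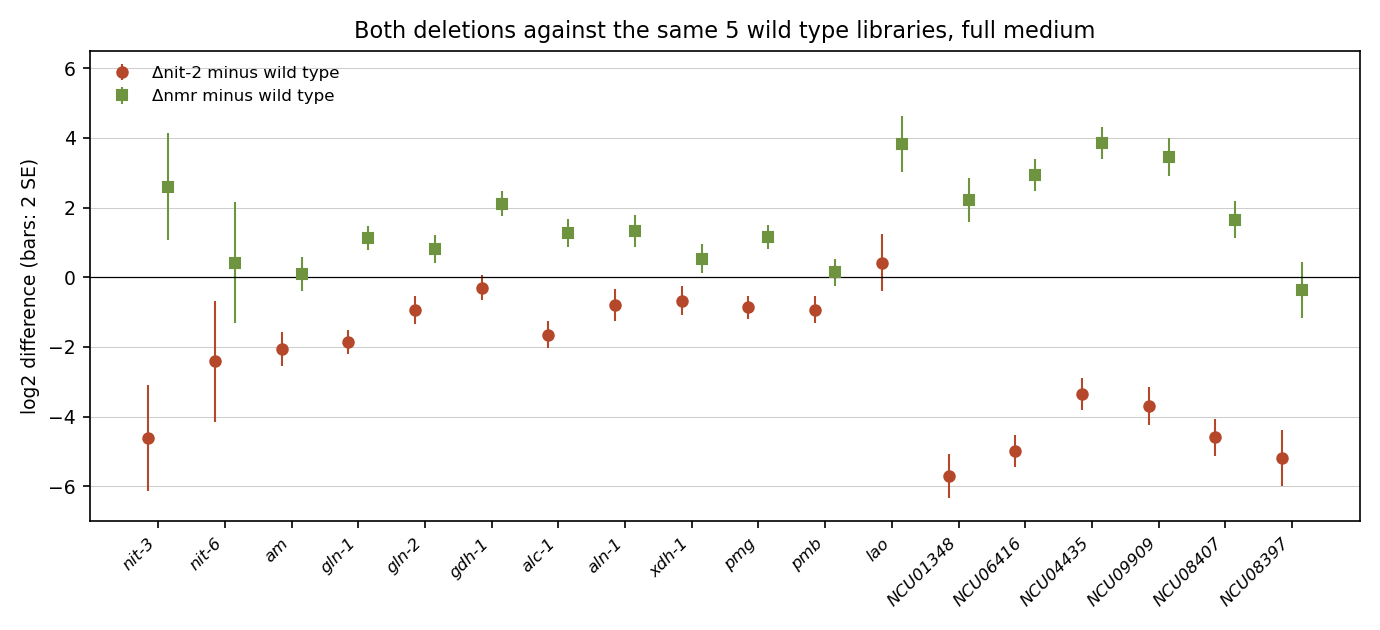
Differences on the log2(FPKM + 1) scale between each deletion strain and the same 5 wild type libraries in full medium, with bars of 2 SE: Δnit-2 (red circles) left of Δnmr (green squares) for 18 genes. Δnit-2 lies below 0 for every gene shown but lao, and Δnmr lies above 0 for every gene shown but NCU08397.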

How the data were processed

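RNA of 86 samples in 27 groups was measured by RNA-seq. HISAT2 2.1.0, Cufflinks 2.2.1 and Cuffnorm 2.2.1 are named in the submitters' processing notes; the build and the strand setting were not given in the sources used here, which leaves overlapping and adjacent genes uncertain. The deposited values are FPKM made by the authors, as a joint table of 9598 entries, of which 153 merge neighbouring genes, and as per-sample tables of 9758 genes. Supercontig coordinates are those of the deposited per-sample tables. Symbols came from an annotation table of assembly NC12, where 9757 identifiers matched and 1118 had a symbol. Joint-table columns were used by group and are numbered as there, because those numbers match the label number for 1 of 3 Δnit-2 and 3 of 5 wild type columns.

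Group means of log2(FPKM + 1) over all 86 samples were fitted with limma 3.58.1 (R 4.3.3) and a trended prior, after keeping 8558 entries with at least 1 FPKM in 3 or more samples. P-values were adjusted by Benjamini-Hochberg over all of them. Tables and figures were made with matplotlib 3.10.9, numpy 2.4.6 and pandas 2.3.3 under Python 3.11.15, and the fit was tested on simulated data. Fragments per gene and library were estimated from each FPKM and its deposited upper confidence bound, taken as 2 Poisson SDs above it, and 78.3% of estimates under 20 lay within 0.05 of a whole number. FPKM carry no molecular identifiers, so limits from fragments cover counting error only. The p-values measure the spread between replicates labelled biological.

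Members and gene lists were chosen with earlier results of these data known. Named genes were nit-2, every member of the nitrogen and mating lists, up to 4 called members of each other list, the largest called differences with and without a symbol, genes called in all 5 media, strain genes and the neighbours of nit-2, 69 entries in all. Another 8 were named after their values were seen. Alternatives were another pseudocount, other filters, scaling, tables and sets of samples, and each library left out.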

Additional observations from a re-analysis of the deposited data

Results flagged for a closer look

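The following differences between the effect of nit-2 loss in full medium and in another medium were called by the interaction term of limma; each value is the full-medium difference minus that of the other medium, for the medium with the largest called value of that gene. The numbers of genes called were 562 for nitrate, 397 for isoleucine, 880 for proline and 640 for tryptophan. The full-medium Δnit-2 libraries stood apart from the other 12 in mating-type and strain genes. For none of these differences can medium and isolate therefore be told apart.

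Against nitrate the value was 1.9 log2 for the nit-10,NCU11348 entry, 1.18 for pmb, 1.98 for pho-4 and 1.19 for NCU02009. It was -2.61 for ccg-4, -4.14 for eas, -1.27 for fl, -3.56 for app and -1.73 for NCU02061.

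Against isoleucine it was 2.5 log2 for pho-5 and 3.19 for NCU01348. It was -1.04 for en(am)-2, -1.01 for NCU05131, -1.4 for NCU05309 and -1.67 for NCU05922.

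Against proline it was 3.68 log2 for lao, 5.84 for mfa-1, 1.17 for ccg-8, 1.42 for gh18-3 and 1.69 for aod-1. It was 1.92 for NCU06416, 2.09 for NCU08355, 3.53 for NCU09506, 2.61 for NCU01926 and 2.18 for NCU16685. The values below 0 were -3.71 for nit-3, -1.33 for cpc-1, -1.85 for aga-1 and -1.4 for NCU05755.

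Against tryptophan it was 2.3 log2 for aln-1, 1.71 for pmg, 1.77 for pho-2, 1.44 for anx14, 1.24 for NCU01968 and 1.03 for NCU00248. It was 2.29 for NCU04475, 1.62 for NCU04435, 1.61 for NCU06417, 5.78 for NCU09968, 2.46 for NCU09969 and 2.48 for NCU02880. The values below 0 were -1.34 for NCU09909, -1.76 for NCU02008, -2.98 for NCU01946 and -1.8 for NCU09874.

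Among the 5 wild type libraries 1 library lay far from the other 4 by Dixon's test in 6 of 77 named genes, where chance gives about 1 in 20. The low values were 537.7 FPKM for gln-1, 1804 for cpc-1 and 44.2 for NCU06416, and the high values 62.1 for NCU05899, 34.5 for NCU05309 and 4.22 for NCU05922, all 6 in library 4 of the joint table.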

How the results depend on the processing

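A pseudocount of 0.1 gave 186 genes higher and 179 lower, against 112 and 113, and 588 called for Δnmr, against 377. Every other alternative run kept these counts within 1.5 times: median-ratio scaling gave 90 and 128, and leaving out 1 library gave 100 to 109 higher and 102 to 117 lower. With the replicate block on label numbers, 105 genes were higher and 141 lower, against 99 and 130 in the same fit with no replicate block. The numbers did not pair the samples: deviations of same-numbered libraries correlated by -0.0153 to 0.0064, and 0 of 3 correlated best with their own number. Of 48 named genes that were called, 35 kept their call under all 18 alternatives and 13 lost it under some (nit-6, pho-5, eas, ccg-8, hgt-1, anx14, app, NCU05899, NCU05131, NCU05309, NCU05922, NCU01428 and NCU01926), with none reversed. The cause was not tested.

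Genes that were not called and lay near 0 changed sign. Median-ratio scaling gave -0.000332 log2 for en(am)-2, -0.0346 for pco-1, -0.0676 for ota and -0.00989 for pre-1. Per-sample values, also with no replicate block, gave -0.0382 for pco-1, -0.0677 for ota and -0.00988 for pre-1. Wild type labels 1 to 3, also with the replicate block, gave -0.0136 for ota and -0.0623 for pre-1, and labels 4 and 5 gave -0.0523 for en(am)-2, -0.114 for pco-1 and -0.149 for ota. Leaving out 1 library gave -0.0203 to 0.0303 for ota and -0.0293 to 0.0520 for pre-1.

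Depth limits genes near 1 FPKM or below, such as matA-1 and ccg-4, where log2(FPKM + 1) understates the change.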
